A study of Mus musculus with 4 samples.

Results

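The genes described here encode the nuclear-coded subunits of the 4 respiratory chain complexes and of ATP synthase, which is also called complex V. The rule that chose them uses the symbol and no measured value, although it was written with earlier results of these data known. A gene was a member if its current symbol began with Nduf followed by a, b, c, s or v and a number, was Sdha to Sdhd or Cyc1, or began with Uqcr, with Cox4 to Cox8 or with Atp5. The array carried probes for 83 such genes, and 81 of them were measured, among 15524 genes measured in all. A gene counted as measured if its brightest probe was well above background on at least 3 of the 4 arrays in 1 of the channels. The 81 were 35 genes of complex I, 4 of complex II, 9 of complex III, 16 of complex IV and 17 of complex V, and each of these passed the background test of the scanner software in the knockout and in the wild-type channel of every array. Cox7b2 and Cox8c, the other two members on the array, were not well above background on any array in either channel.

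The study took whole pancreas from C57BL/6JNarl mouse embryos at stage E18.5 and compared Cyp11a1 knockout with wild type. Cyp11a1 encodes a mitochondrial cytochrome P450, itself no part of the respiratory chain, that starts steroid hormone synthesis from cholesterol. RNA of 1 knockout extract, in the red dye, and of 1 wild-type extract, in the green dye, was hybridised together on each of 4 arrays, called arrays 1 to 4 by the replicate number in the labels. The labels name the 4 arrays biological replicates, with the numbers taken from the titles, since the description field repeats 1 number on all of them. The titles also give every extract a code of unstated meaning. Over all genes, the log2 ratios of arrays 1 and 3 (Pearson's r = 0.60) and of arrays 2 and 4 (r = 0.59) were closer than those of the other pairs (0.31 to 0.43), a description across genes, which are not independent replicates. A common origin of extracts was not tested, and p-values measure the spread between these arrays. How the knockout was made, and how many embryos gave an extract, are points not given in the sources used here. Because the knockout extract was red on every array, a dye effect on a gene cannot be told apart from genotype.

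Complexes I to IV sit in the inner mitochondrial membrane and pass electrons from NADH and succinate to oxygen, and complexes I, III and IV pump protons as they do so. ATP synthase lets the protons flow back and makes ATP. Part of each machine other than complex II is encoded by mitochondrial DNA, and the rest is made on cytosolic ribosomes and imported. In many cell types the nuclear genes for the subunits share promoter elements, among them sites for the transcription factors NRF1, the ETS family member GABP and YY1. Pancreatic acinar cells spend much ATP on making and packing digestive enzymes, and beta cells use mitochondrial ATP production to couple glucose to insulin release.

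Promoter sequences are shown for the member with the smallest p-value in each of complexes I, III, IV and V and for Sdhd, which had the lowest log2 ratio of the members with a promoter sequence, so that the letters can be set beside the responses described further on. Each runs from 250 bases before to 50 bases after a transcription start in RefSeq on GRCm38.p6, is read from the minus strand, and has the motif matches in capitals. The motifs marked, searched on both strands, were GCGCANGCGC for NRF1 and CCGGAAG for ETS factors, which reads CTTCCGG on the opposite strand. Matches to the other motifs counted further on are not marked. The windows were chr6:24527477-24527776 for Ndufa5, the first of 2 starts listed, chr4:116075021-116075320 for Uqcrh, chr19:7217567-7217866 for Cox8a, chr16:91931581-91931880 for Atp5o and chr9:50603800-50604099 for Sdhd.
Ndufa5: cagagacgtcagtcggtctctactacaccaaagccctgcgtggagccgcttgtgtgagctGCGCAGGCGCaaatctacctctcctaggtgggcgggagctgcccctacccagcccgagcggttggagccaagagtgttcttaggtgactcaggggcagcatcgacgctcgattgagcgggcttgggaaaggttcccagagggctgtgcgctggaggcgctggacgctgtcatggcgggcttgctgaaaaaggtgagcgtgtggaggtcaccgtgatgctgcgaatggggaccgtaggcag
Uqcrh: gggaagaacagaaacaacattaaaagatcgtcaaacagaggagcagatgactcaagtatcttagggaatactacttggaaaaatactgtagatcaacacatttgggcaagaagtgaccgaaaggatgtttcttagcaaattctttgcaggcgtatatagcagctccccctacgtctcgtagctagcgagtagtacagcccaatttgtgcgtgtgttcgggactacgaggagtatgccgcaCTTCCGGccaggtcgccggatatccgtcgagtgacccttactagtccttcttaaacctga
Cox8a: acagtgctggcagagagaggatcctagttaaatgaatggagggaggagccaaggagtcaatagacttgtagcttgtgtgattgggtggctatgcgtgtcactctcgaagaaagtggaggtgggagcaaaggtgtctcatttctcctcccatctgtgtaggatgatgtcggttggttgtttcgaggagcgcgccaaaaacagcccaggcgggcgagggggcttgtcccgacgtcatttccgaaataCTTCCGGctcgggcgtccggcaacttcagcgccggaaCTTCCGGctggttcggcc
Atp5o: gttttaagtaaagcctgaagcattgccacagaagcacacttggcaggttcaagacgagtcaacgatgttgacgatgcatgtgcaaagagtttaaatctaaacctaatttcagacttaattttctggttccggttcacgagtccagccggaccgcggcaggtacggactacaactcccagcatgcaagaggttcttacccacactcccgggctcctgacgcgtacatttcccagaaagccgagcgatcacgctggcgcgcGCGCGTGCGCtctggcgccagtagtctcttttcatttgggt
Sdhd: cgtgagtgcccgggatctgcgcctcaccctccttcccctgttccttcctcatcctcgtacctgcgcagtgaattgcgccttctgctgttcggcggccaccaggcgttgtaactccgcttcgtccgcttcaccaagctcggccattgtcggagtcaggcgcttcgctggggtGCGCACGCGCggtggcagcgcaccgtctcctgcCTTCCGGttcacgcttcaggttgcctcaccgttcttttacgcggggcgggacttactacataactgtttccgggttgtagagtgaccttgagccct

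Ndufa5 and Atp5o thus held the NRF1 letters, Uqcrh held the ETS letters and Cox8a held them at 2 places. Sdhd, whose ratio lay below 0, held both. Of the 81 measured members, 66 had a promoter in the table. The NRF1 letters were in 16 of them (24.2%), against 9.09% of the promoters of 12401 genes. The ETS letters were in 17 (25.8%), against 15.9%. YY1 letters, AANATGGCG, were in 10 (15.2%), against 4.56%. In contrast, GGGCGG, the core of an Sp1 site, was in 27 members (40.9%) and in 59.4% of all promoters, and TATAAA was in 7 (10.6%) and in 12.2%. The letters TGACGTCA of a cyclic AMP element were in 3 members (4.55%) and in 2.99% of all promoters, and TCAAGGTCA of estrogen-related receptors was in Atp5g3 and Sdhd (3.03%) and in 0.331%. A full glucocorticoid receptor palindrome, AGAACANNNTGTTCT, was in 0 members and in 0.0161% of all promoters. Overlaps between motifs were not removed. The shares differ between members and all promoters by description only, since no enrichment test was made.

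A large share of the genes was higher in knockout pancreas and not one was lower. Of the 81 measured members, 39 rose and 0 fell in limma at an adjusted p under 0.05, against 9.45% of all genes tested that were higher and 5.11% that were lower. At an unadjusted p under 0.05 in limma, 58 members were higher and 0 lower. No share of all genes at an unadjusted threshold is given in this report, so counts at it cannot be set against all genes. The members had a median log2 ratio (knockout over wild type) of 0.22, a level 16.8% above wild type, against 0.013 over all genes, and the members ranged from -0.074 to 0.51. Each of the 39 that rose was above wild type on every array, which is no separate result, because the test used the same ratios. Their increases ran from 15.3% for Atp5a1 to 42.4% for Atp5o. Of all 81, 77 had a mean above 0 and 59 were above 0 on every array that measured them, against 24.6% of all genes with 4 values. In single channels, every knockout value exceeded every wild-type value for 21 members, against 6.23% of all genes, and the reverse held for 0 members, against 2.15%. From here on, values are means ± SE of the log2 ratio from limma over 4 arrays unless another n is given. In bulk extracts of this kind, fewer cells of a type and less RNA per cell cannot be told apart, nor can more cells and more RNA per cell.

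The count of members that rose was lower with any 1 array left out. Without replicate 1, 2, 3 or 4 in turn, 33, 22, 17 and 11 members rose, while 4.84%, 6.16%, 4.07% and 4.11% of all genes were higher. The members' median ratio ran from 0.16 without replicate 2 to 0.26 without replicate 1. Of the 39, 11 passed whichever array was left out: Ndufa3, Ndufa4, Ndufa5, Ndufa13, Ndufb11, Uqcrh, Cox8a, Atp5g2, Atp5h, Atp5j and Atp5o. In the refit without replicate 4, Uqcrh was represented by its other probe, which had become the brighter one. When the channels were compared without the array as a block, 0 members passed in limma, against 0.496% of all genes higher and 0.193% lower. The lowest adjusted p of a member was then 0.0643, with 36 members at an unadjusted p under 0.05, again without a share of all genes. With the scanner software's processed signals in place of median signals, 24 members were higher, against 7.37% of all genes.

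**Figure D1:**
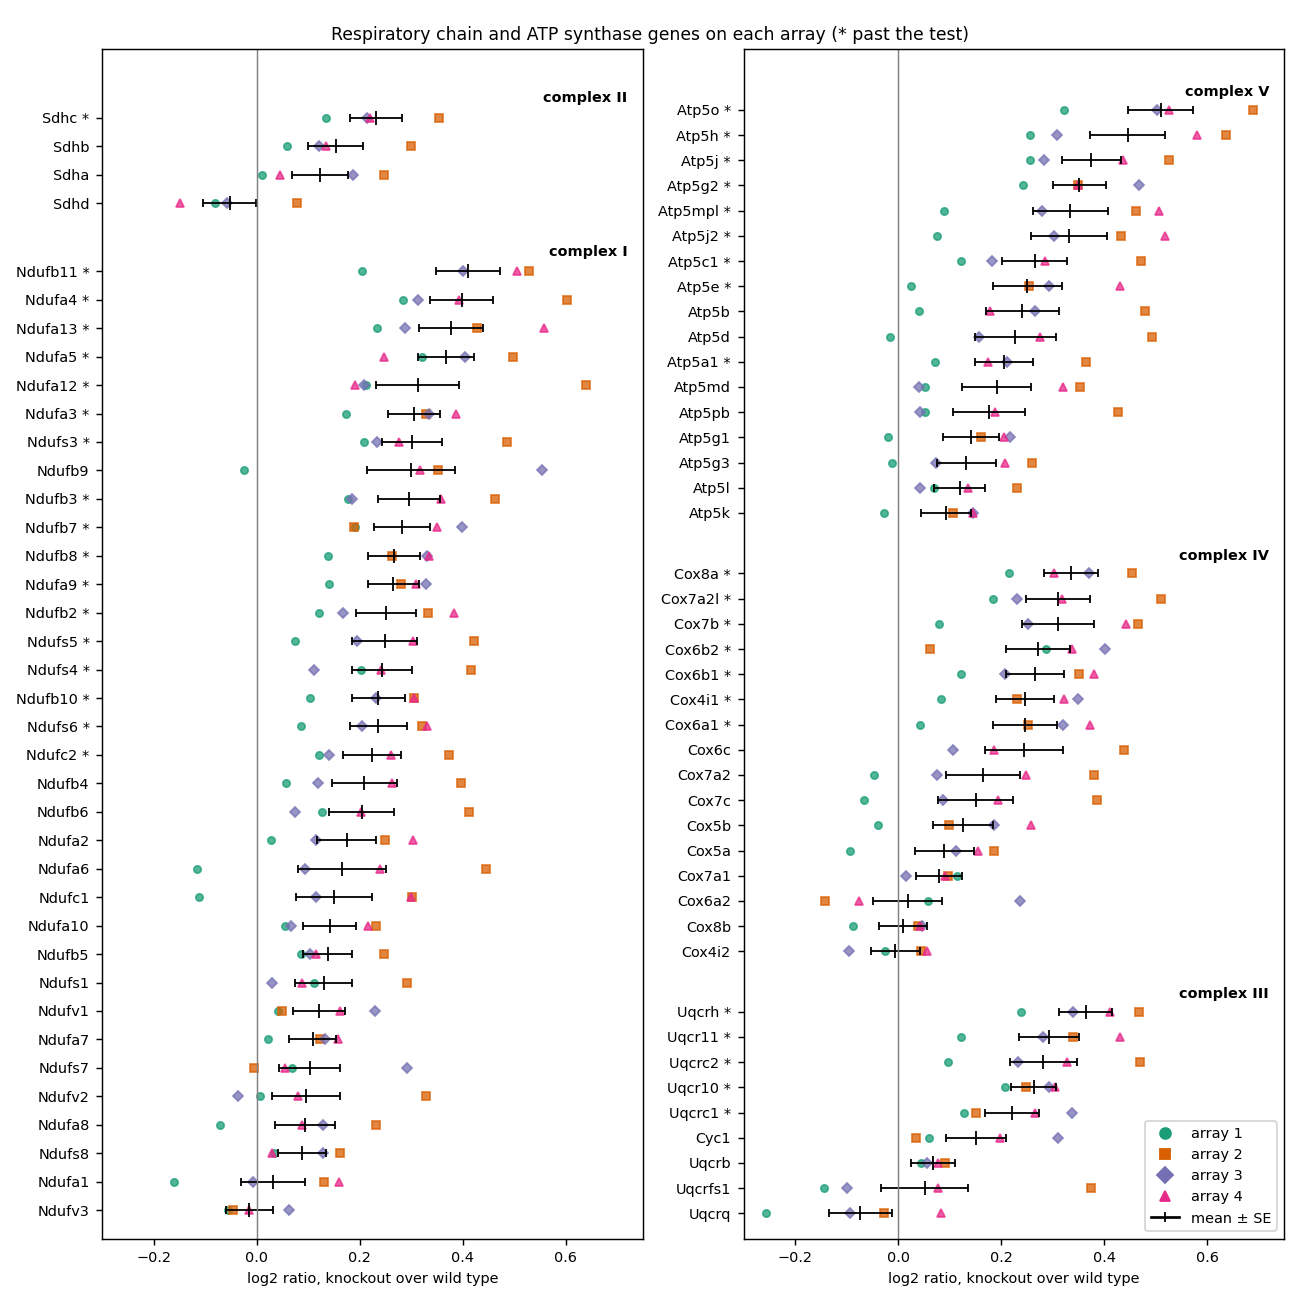
Log2 ratio of knockout over wild type for 80 of the 81 measured genes, grouped by complex and ordered by mean, with 1 symbol per array and the mean ± SE from limma in black. Stars mark the 39 genes past the test. Most points lie right of 0, and array 1 gave the lowest value for 62 of the 80 genes with 4 values.

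In complex I, the entry point for electrons from NADH, 17 of 35 genes rose, with a median of 0.22. Both counts include Ndufa4, which is placed here by its symbol and is not counted with complex IV. The roles were assigned after values had been seen. Of the 7 core genes, whose products carry the flavin, the iron-sulfur clusters and the ubiquinone site, 1 rose, with a median of 0.12. Of the 28 accessory genes, Ndufa4 among them, 16 rose, with a median of 0.24. The difference between these sets was not tested.

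Ndufb11, an accessory subunit of the membrane arm, had the highest ratio of the complex, with 0.20, 0.53, 0.40 and 0.51 on arrays 1 to 4 and a mean of 0.41 ± 0.062 (adjusted p = 0.00743). Ndufa4, once counted with complex I and now known as a subunit of complex IV, read 0.28, 0.60, 0.31 and 0.39 and had a mean of 0.40 ± 0.061 (adjusted p = 0.00767). Ndufa13, a membrane arm subunit also known as GRIM-19, read 0.23, 0.43, 0.29 and 0.56, with a mean of 0.38 ± 0.062. In these 3 genes array 1 was the lowest and array 2 or array 4 the highest. Ndufa5 sits on the arm that reaches into the matrix. Its knockout signals on arrays 1 to 4 were 12.61, 12.35, 12.52 and 12.06 (normalised log2 signal), and its wild-type signals were 12.29, 11.85, 12.11 and 11.82. The ratios were thus 0.32, 0.50, 0.41 and 0.25, with a mean of 0.37 ± 0.054 (29.1% higher, 95% interval 0.24 to 0.49 on the log2 scale, adjusted p = 0.00638). Knockout exceeded wild type within every array, although the ranges of the 2 groups overlapped across arrays. Ndufa3, a small subunit of the membrane arm, read 0.17, 0.33, 0.34 and 0.39 and had a mean of 0.31 ± 0.051. These 5 genes passed whichever replicate was left out.

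Ndufs3 was the core gene that rose. It encodes a scaffold subunit of the ubiquinone-reducing module and read 0.21, 0.49, 0.23 and 0.28, with a mean of 0.30 ± 0.058. Ndufs4 and Ndufs6, accessory subunits beside the NADH-oxidising module, read 0.20, 0.42, 0.11 and 0.24 and 0.086, 0.32, 0.21 and 0.33, with means of 0.24 ± 0.058 and 0.24 ± 0.055. Ndufs5, which faces the intermembrane space, read 0.075, 0.42, 0.19 and 0.30 (0.25 ± 0.063). Array 2 was the highest in Ndufs3, Ndufs4 and Ndufs5, and array 4 was slightly above it in Ndufs6. Ndufa12, an accessory subunit near the NADH-oxidising module, read 0.21, 0.64, 0.21 and 0.19, so that array 2 stood far above the others, and its mean was 0.31 ± 0.080. Ndufa9, a subunit close to the ubiquinone site, read 0.14, 0.28, 0.33 and 0.31 (0.27 ± 0.050).

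The membrane arm genes Ndufb2, Ndufb3, Ndufb7, Ndufb8, Ndufb10 and Ndufc2 also rose. Ndufb3 read 0.18, 0.46, 0.19 and 0.36 (0.30 ± 0.060). Ndufb7 read 0.19, 0.19, 0.40 and 0.35 (0.28 ± 0.054). Ndufb8 read 0.14, 0.26, 0.33 and 0.33 (0.27 ± 0.051). In Ndufb7 and Ndufb8 arrays 3 and 4 were the higher ones, whereas Ndufb3 was led by arrays 2 and 4. Ndufb2 read 0.12, 0.33, 0.17 and 0.38 (0.25 ± 0.058). Ndufb10 read 0.10, 0.31, 0.23 and 0.31 (0.24 ± 0.051). Ndufc2 read 0.12, 0.37, 0.14 and 0.26 (0.22 ± 0.056). All of these were lowest on array 1, except that Ndufb7 was about as low on array 2. The adjusted p of the 17 genes lay between 0.00638 and 0.0402. Without replicate 4, Ndufb3 and Ndufs3 did not pass (adjusted p = 0.0748 and 0.0535), and without replicate 3 or 4 neither did Ndufa9, Ndufb7 and Ndufb8 (0.0613 to 0.0689). Ndufa12 did not pass without replicate 1 or 4 (0.0697 and 0.0835), nor Ndufs4 without replicate 1, 2 or 4 (0.0699 to 0.0995). Ndufb2, Ndufb10, Ndufs5 and Ndufs6 did not pass without replicate 2, 3 or 4 (0.0571 to 0.126), and Ndufc2 passed in none of the 4 refits (0.0625 to 0.125). Over complex I, 15, 11, 9 and 5 genes rose without replicates 1 to 4 in turn.

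The other 18 genes of complex I did not pass. Ndufb9, a subunit of the LYR family, had a mean as high as the called genes, at 0.30 ± 0.086 (adjusted p = 0.0563), but read -0.024, 0.35, 0.55 and 0.32, with array 1 below 0. The remaining Ndufb and Ndufc genes were Ndufb4 at 0.21, Ndufb6 at 0.20, Ndufb5 at 0.14 and Ndufc1 at 0.15. Among the Ndufa genes, Ndufa2 was at 0.17, Ndufa6 at 0.17, Ndufa10 at 0.14, Ndufa7 at 0.11, Ndufa8 at 0.094 and Ndufa1, an X-linked gene, at 0.031. Core genes that did not pass lay close together. Ndufs1, the large iron-sulfur subunit, was at 0.13, Ndufv1, which binds NADH and the flavin, at 0.12, Ndufs7 at 0.10, Ndufv2 at 0.095 and Ndufs8 at 0.088. Ndufv3, a small accessory subunit of the NADH-oxidising module, had the lowest ratio of the complex, reading -0.056, -0.046, 0.062 and -0.016 with a mean of -0.014 ± 0.045. Array 3 alone was above 0 in it.

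Some of these genes had more than 1 tested probe, and the brightest stood for the gene. Over the 81 members, 15 had several probes, 34 in all, and in 2 genes, Ndufa1 and Ndufv3, the probes differed in sign. The probes gave 0.031 and -0.041 for Ndufa1, and -0.014, 0.054 (n = 3) and 0.16 for Ndufv3, none past the threshold when all 32596 probes were tested on their own. Ndufa7, at 0.11 on its brightest probe, gave 0.37 on the other (adjusted p = 0.0139), so its call turns on the probe. Ndufa12 gave 0.31, 0.33 and 0.16 on its 3 probes, and the lowest of these did not pass (adjusted p = 0.252). In contrast, the probes gave 0.36 and 0.41 for Uqcrh, 0.35 and 0.36 for Atp5g2 and 0.45 and 0.35 for Atp5h. Binding of a probe to related genes or processed pseudogenes was not tested.

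Complex II, succinate dehydrogenase, is the one complex with no subunit from mitochondrial DNA, and it also serves the citric acid cycle. Of its 4 genes 1 rose, with a median of 0.14. Sdhc, a membrane anchor that helps to bind ubiquinone and heme, had knockout signals of 11.84, 12.02, 12.05 and 11.93 and wild-type signals of 11.71, 11.67, 11.83 and 11.71. Its lowest knockout value was thus above its highest wild-type value. The ratios were 0.13, 0.35, 0.21 and 0.22, with a mean of 0.23 ± 0.051 (adjusted p = 0.0244), and without replicate 2, 3 or 4 it did not pass (adjusted p = 0.0587 to 0.0827). Sdhd, the other anchor, read -0.081, 0.079, -0.058 and -0.15 and had the mean -0.052 ± 0.051 (95% interval -0.17 to 0.067). Array 2 alone was above 0 in Sdhd. The catalytic pair did not pass: Sdha, the flavoprotein, was at 0.12 ± 0.055 and Sdhb, the iron-sulfur subunit, at 0.15 ± 0.053, both above 0 on every array.

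Complex III passes electrons from ubiquinol to cytochrome c. Of its 9 genes 5 rose, with a median of 0.22. Uqcrh, the acidic hinge protein beside cytochrome c1, had knockout signals of 13.09, 13.47, 13.41 and 13.49 against 12.85, 13.00, 13.07 and 13.08 in wild type, with no overlap. The ratios of 0.24, 0.47, 0.34 and 0.41 gave a mean of 0.36 ± 0.052 (28.7% higher, adjusted p = 0.00591). The small subunits Uqcr10 and Uqcr11 read 0.21, 0.25, 0.29 and 0.30 and 0.12, 0.34, 0.28 and 0.43, with means of 0.26 ± 0.044 and 0.29 ± 0.058. Uqcr10 was the most even of the called genes over the arrays. The core proteins, which resemble a processing peptidase, rose as well. Uqcrc2 read 0.097, 0.47, 0.23 and 0.33 (0.28 ± 0.065). Uqcrc1 read 0.13, 0.15, 0.34 and 0.26 (0.22 ± 0.052). Array 2 was the highest in Uqcrc2 and the second lowest in Uqcrc1.

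The redox subunits of complex III did not pass. Cyc1, cytochrome c1, read 0.060, 0.035, 0.31 and 0.20 (0.15 ± 0.058, adjusted p = 0.126). Uqcrfs1, the Rieske iron-sulfur protein, read -0.14, 0.37, -0.099 and 0.076 (0.052 ± 0.085), above 0 on arrays 2 and 4 and below 0 on arrays 1 and 3. Without replicate 2, which held its one large value, Uqcrfs1 was at -0.055. Uqcrb, a small subunit near the ubiquinone sites and the brightest of all 81 members, was at 0.067 ± 0.042. Uqcrq, another small subunit, had the lowest ratio of all 81, reading -0.26, -0.028, -0.094 and 0.083 with a mean of -0.074 ± 0.061 (95% interval -0.22 to 0.068). Of the called genes, Uqcr10 did not pass without replicate 4 (adjusted p = 0.0528), Uqcr11 without replicate 3 or 4 (0.055 and 0.0715), Uqcrc2 without replicate 2, 3 or 4 (0.0661 to 0.0979) and Uqcrc1 without replicate 1, 3 or 4 (0.0571 to 0.12). Without replicates 1 to 4 in turn, 4, 4, 2 and 1 of the 9 rose.

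**Figure D2:**
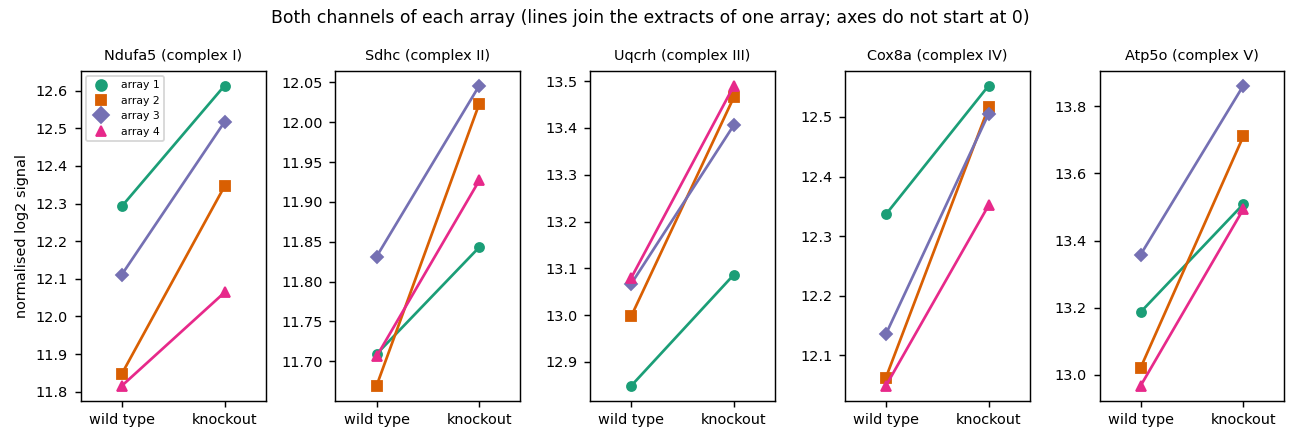
Normalised log2 signal of the gene with the smallest p-value in each complex, in wild type and knockout, with a line joining the 2 extracts of an array and axes that do not start at 0. Every line rises from wild type to knockout, and the groups overlap for Ndufa5 alone.

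Complex IV, cytochrome c oxidase, reduces oxygen to water, and several of its nuclear subunits come as isoform pairs, one widely expressed and the other restricted to some tissues. Of the 16 genes measured 7 rose, with a median of 0.20. Of 11 widely expressed genes 6 rose (median 0.25), and of 5 measured tissue-restricted isoforms 1 rose (median 0.019). The restricted isoforms were also dim. Their median brightness was at percentile 21.8 of all genes, and 0 of the 5 were in the brightest 20% of genes, which held 9 of the 11 others. This division too was made after values had been seen, and its difference was not tested.

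Cox8a, the ubiquitous form of the smallest subunit, had knockout signals of 12.55, 12.52, 12.51 and 12.35 and wild-type signals of 12.34, 12.06, 12.14 and 12.05, with no overlap. The ratios were 0.22, 0.45, 0.37 and 0.30, with a mean of 0.34 ± 0.052 (26.2% higher, adjusted p = 0.00797), and it passed whichever replicate was left out. Its muscle and brown fat form Cox8b read -0.088, 0.038, 0.046 and 0.041, with a mean of 0.0095 ± 0.047, and the testis form Cox8c was among the unmeasured genes. Cox4i1, the common form of a regulatory subunit, rose, reading 0.083, 0.23, 0.35 and 0.32 (0.25 ± 0.056). Cox4i2, its oxygen-responsive form best known from lung, had the lowest ratio of the complex, reading -0.026, 0.044, -0.096 and 0.055 (-0.0055 ± 0.047, 95% interval -0.12 to 0.10). Cox6a1 rose, at 0.041, 0.25, 0.32 and 0.37 (0.25 ± 0.062), and its heart and muscle form Cox6a2 read 0.057, -0.14, 0.24 and -0.076 (0.019 ± 0.067), above 0 on arrays 1 and 3 and below 0 on the others. In these 3 sets the common form was thus past the test and the restricted form near 0.

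The Cox6b pair and the Cox7a set differed from these. Both Cox6b forms rose: Cox6b1, the common one, read 0.12, 0.35, 0.21 and 0.38 (0.27 ± 0.057), and Cox6b2, known from testis, read 0.29, 0.062, 0.40 and 0.34 (0.27 ± 0.062). Cox6b2 was lowest on array 2, the array on which most members were highest. Of the Cox7a set, Cox7a2l, which takes part in joining complexes III and IV into supercomplexes, rose, reading 0.18, 0.51, 0.23 and 0.32 (0.31 ± 0.061). The common form Cox7a2 read -0.047, 0.38, 0.076 and 0.25 (0.16 ± 0.072, adjusted p = 0.17) and the muscle form Cox7a1 read 0.12, 0.096, 0.015 and 0.091 (0.079 ± 0.044), and neither passed. Cox7b, an X-linked gene, rose, reading 0.080, 0.47, 0.25 and 0.44 (0.31 ± 0.070), while Cox7b2, a testis form, was not measured. The adjusted p of the 7 genes lay between 0.00797 and 0.0375. Without replicate 4, Cox7a2l did not pass (adjusted p = 0.0625), without replicate 1, 3 or 4 neither did Cox6b2 (0.091 to 0.104), and without replicate 2, 3 or 4 neither did Cox4i1, Cox6a1, Cox6b1 and Cox7b (0.0554 to 0.137). Without replicates 1 to 4 in turn, 6, 3, 2 and 1 of the 16 rose.

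The remaining widely expressed genes of complex IV did not pass. Cox6c had values on arrays 2 to 4 only, because its spot on array 1 was marked as non-uniform, and read 0.44, 0.11 and 0.19 there (0.24 ± 0.075, n = 3, adjusted p = 0.0792). Cox7c was at 0.15 ± 0.073, Cox5b at 0.13 ± 0.058 and Cox5a at 0.090 ± 0.058. Each of these 3 was below 0 on array 1 and above 0 on the other arrays. Cox5a and Cox5b encode subunits that sit on the catalytic core, Cox5a on its matrix side.

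In complex V 9 of 17 genes rose, with a median of 0.24, and all 17 means were above 0. The peripheral stalk, which holds the catalytic head still against the turning rotor, had 3 of its 4 genes past the test and a median of 0.41. Atp5o encodes the oligomycin sensitivity protein at the top of that stalk. Its knockout signals were 13.51, 13.71, 13.86 and 13.49, against 13.19, 13.02, 13.36 and 12.97 in wild type. The lowest knockout value was above the highest wild-type value. Its ratios were 0.32, 0.69, 0.50 and 0.53, the highest mean of all 81 members at 0.51 ± 0.063 (42.4% higher, 95% interval 0.36 to 0.66, adjusted p = 0.00382). Atp5h, subunit d, read 0.26, 0.64, 0.31 and 0.58 (0.45 ± 0.073), and Atp5j, coupling factor F6, read 0.26, 0.53, 0.28 and 0.44 (0.38 ± 0.058). Array 2 was the highest and array 1 the lowest in all 3 of these genes. Atp5pb, subunit b, read 0.053, 0.43, 0.041 and 0.19 (0.18 ± 0.070, adjusted p = 0.134) and did not pass.

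Of the 5 genes of the catalytic head and its central stalk 3 rose, with a median of 0.24. Atp5a1, the alpha subunit, read 0.071, 0.36, 0.21 and 0.18 (0.21 ± 0.057, adjusted p = 0.0493). Atp5c1, the gamma subunit of the shaft, read 0.12, 0.47, 0.18 and 0.28 (0.26 ± 0.064), and Atp5e, the epsilon subunit, read 0.025, 0.25, 0.29 and 0.43 (0.25 ± 0.067). Array 1 was the lowest in each of them. The beta subunit gene Atp5b was at 0.24 ± 0.071 (adjusted p = 0.0617) and the delta subunit gene Atp5d at 0.23 ± 0.079 (adjusted p = 0.0966), means much like those of the called genes but with a wider spread over arrays.

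The ring of c subunits, through which the protons pass, is encoded by 3 genes with the same mature product. Atp5g2 rose, reading 0.24, 0.35, 0.47 and 0.35 (0.35 ± 0.051, 27.6% higher, adjusted p = 0.00602). Atp5g1 read -0.019, 0.16, 0.22 and 0.21 (0.14 ± 0.054) and Atp5g3 read -0.011, 0.26, 0.073 and 0.21 (0.13 ± 0.057), and neither passed. On array 1 Atp5g2 alone was above 0. Whether Atp5g2 differed from the other two was not tested. Of the 5 accessory genes of the membrane part 2 rose. Atp5mpl read 0.089, 0.46, 0.28 and 0.51 (0.33 ± 0.073), and Atp5j2, subunit f, read 0.075, 0.43, 0.30 and 0.52 (0.33 ± 0.074). Both were highest on array 4 and lowest on array 1. Atp5md was at 0.19 ± 0.067, Atp5l, subunit g, at 0.12 ± 0.049, and Atp5k, subunit e, which helps to pair the enzymes into dimers, had the lowest ratio of the complex, reading -0.027, 0.11, 0.15 and 0.14 (0.092 ± 0.049). Without replicate 2, 3 or 4, Atp5e, Atp5j2 and Atp5mpl did not pass (adjusted p = 0.0571 to 0.16), and Atp5a1 and Atp5c1 passed in none of the 4 refits (0.0501 to 0.135). Without replicates 1 to 4 in turn, 7, 4, 4 and 4 of the 17 rose.

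The members moved together from array to array. Their median log2 ratio was 0.075 on array 1, 0.33 on array 2, 0.19 on array 3 and 0.26 on array 4, against 0.018, 0.017, 0.022 and 0.020 for all genes. Of the 80 members with 4 values, array 2 gave the highest ratio in 45 and array 1 the lowest in 62. On arrays 1 to 4, 61 of 80, 77, 75 and 78 of 81 members were above 0. The order differed somewhat between complexes: complex V had medians of 0.069, 0.43, 0.22 and 0.28, whereas complex III had 0.097, 0.25, 0.28 and 0.26 and complex II 0.034, 0.27, 0.15 and 0.090. Genes of the cytosolic ribosome had the same order of arrays at a higher level, with medians of 0.38, 0.70, 0.51 and 0.64. Xist, which is expressed from the inactive X chromosome of females, read -3.91, -0.28, -4.22 and 3.46, far from 0 on arrays 1, 3 and 4, and the labels do not give the sex of the embryos. Its part in the results was not tested. Array 4, with a member median of 0.26, was the only array with Xist higher in knockout. Arrays 1 to 3 had member medians of 0.075, 0.33 and 0.19.

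**Figure D3:**
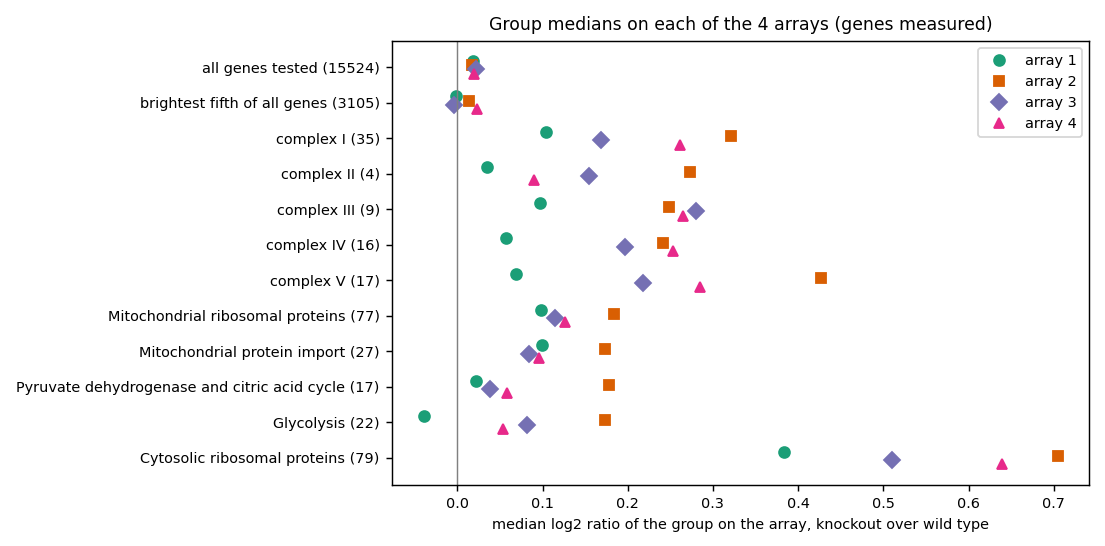
Median log2 ratio of knockout over wild type on each array, for all genes, the brightest 20% of genes, the 5 complexes and other gene groups, with the number of genes measured in brackets. The medians of the 5 complexes lie above 0 on every array, and array 1 is the lowest in each.

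The members were bright genes. Of the 81, 68 lay in the brightest 20% of all genes, where 12.6% of genes were higher, 8.18% were lower and the median ratio was 0.0029. The 68 members there had a median of 0.24, and 36 of them rose. Brightness bears on the normalisation, because loess sets the average ratio to 0 at each brightness. With median centring in place of loess, the median of all genes moved to 0.26 and that of the brightest 20% to 0.24 above it. The members' median was then 0.68, or 0.42 above the median of all genes, and 78 of 81 members lay above that median. The genes below it were Cox4i2, Cox6a2 and Cox8b. Within the brightest members the ratio did not follow brightness: Uqcrb, Atp5b, Ndufv3, Atp5k and Atp5j, all among the brightest, had ratios of 0.067, 0.24, -0.014, 0.092 and 0.38.

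**Figure D4:**
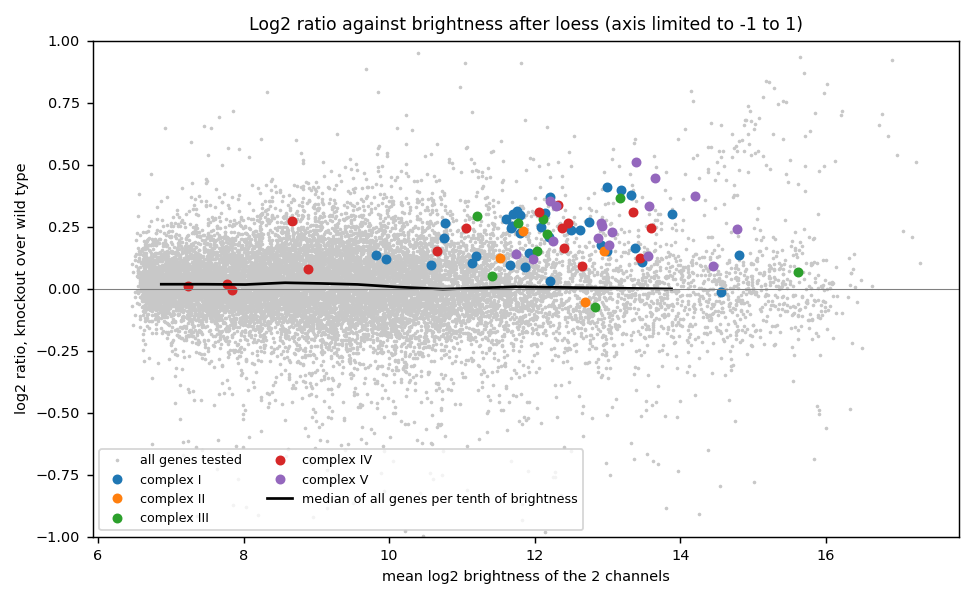
Mean log2 ratio of knockout over wild type against mean log2 brightness for all genes (grey, limited to ratios between -1 and 1) and for the members, coloured by complex, with the median of all genes per step of brightness as a line. The line stays near 0, and most members lie above it at high brightness.

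Other genes of mitochondrial energy supply moved less as groups. Of 19 measured assembly factors of complex I, 8 rose and 1 fell (median 0.16). Ndufaf3 was higher at 0.21 ± 0.046 and Dmac1 at 0.19 ± 0.044, both without a call when any 1 replicate was left out (adjusted p = 0.0604 to 0.123). Ndufaf4 went the other way, at -0.23 ± 0.053, and it did not pass without replicate 2, 3 or 4 (adjusted p up to 0.123). With median centring it was at 0.15, still below the median of all genes in that setting, 0.26. Without replicates 1 to 4 in turn, 1, 0, 0 and 0 of these factors rose. Of 37 assembly factors of complexes II to V, 6 rose and 1 fell (median 0.078). Cox20, which helps to mature a core subunit of complex IV, rose by 0.45 ± 0.049 (adjusted p = 0.00253). Tmem242, an ATP synthase assembly factor, was higher at 0.24 ± 0.049 (adjusted p up to 0.0635 without replicate 3 or 4), and Uqcc2, of complex III, at 0.21 ± 0.043 (up to 0.0898 without replicate 1, 3 or 4).

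Among 15 genes of cytochrome c and coenzyme Q, the mobile carriers between the complexes, 4 rose and 1 fell. Coq10b, a coenzyme Q binding protein, fell by 0.52 ± 0.043 (adjusted p = 0.0019), also with median centring. Coq7 and Coq4, of coenzyme Q synthesis, had ratios of 0.23 ± 0.042 and 0.24 ± 0.045, and did not pass without replicate 4 (Coq7, adjusted p = 0.0623) or without replicate 1 or 3 (Coq4, up to 0.0646). Of 6 subunits and regulators whose symbols lie outside the choice of members, 1 rose, and Higd1b and the phosphate carrier gene Slc25a3 were at -0.22 ± 0.063 and 0.12 ± 0.046. The one that rose was Atpif1, the inhibitor that stops ATP synthase from running backwards, which read 0.39, 0.65, 0.46 and 0.55 and rose by 0.51 ± 0.055 (adjusted p = 0.00236). Atp5o, at 0.51 as well, was the one member of that size. Of 17 genes of pyruvate dehydrogenase and the citric acid cycle, 2 rose and 2 fell. Idh3g, of isocitrate dehydrogenase, rose by 0.44 ± 0.055 and Fh1, fumarase, by 0.37 ± 0.060, while Dlat, of pyruvate dehydrogenase, was lower at -0.50 ± 0.090 (adjusted p = 0.0502 without replicate 1). Of 22 genes of glycolysis, 3 rose and 2 fell. Ldhb was higher at 0.33 ± 0.058, and Pfkm and Hk1 were lower at -0.82 ± 0.17 and -0.23 ± 0.048. None of these 3 passed without replicate 1 or 4 (adjusted p up to 0.0944), and Hk1 was at 0.33 with median centring.

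Of 22 regulators of mitochondrial biogenesis, 3 rose and 1 fell. The one that fell was Nrf1, whose product binds GCGCANGCGC and similar letters. It read -0.50, -0.46, -0.46 and -0.30 on arrays 1 to 4 and fell by 0.43 ± 0.050 (adjusted p = 0.00319) with loess. It passed whichever replicate was left out (adjusted p up to 0.0193), but with median centring it was at 0.049, which is -0.21 against the all-gene median. The median ratio was 0.23 for the 16 members with the NRF1 letters and 0.23 for the 50 without them. Polg2 and Tfb1m, of mitochondrial DNA replication and ribosomal RNA modification, had ratios of 0.21 ± 0.044 and 0.33 ± 0.072, and did not pass without replicate 1, 3 or 4 (Polg2, adjusted p up to 0.109) or without replicate 1, 2 or 3 (Tfb1m, up to 0.081).

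Of 77 mitochondrial ribosomal protein genes, 26 rose and 2 fell (median 0.15). Mrpl52 rose by 0.49 ± 0.051, Mrps15 by 0.41 ± 0.045 and Mrpl48 by 0.36 ± 0.046. Without replicates 1 to 4 in turn, 12, 16, 10 and 15 of them rose. Of 27 genes of mitochondrial protein import and folding, 10 rose and 0 fell in limma (median 0.14, with 13 higher and 2 lower at an unadjusted p under 0.05), but without replicates 1 to 4 in turn 4, 1, 1 and 1 rose. Hspe1, a chaperonin, rose by 0.41 ± 0.069, whereas Dnajc19 and Timm13 were higher at 0.26 ± 0.057 and 0.22 ± 0.050 and did not pass without replicate 2, 3 or 4 (adjusted p up to 0.109), nor did Timm13 without replicate 1. Of 79 genes of the cytosolic ribosome, 75 rose and 0 fell in limma (median 0.56, with 76 higher and 0 lower at an unadjusted p under 0.05), among them Rps24 (0.93 ± 0.062), Rpl23a (0.77 ± 0.059) and Rplp1 (1.09 ± 0.087). Differences between these lists and the members were not tested. Subunits encoded by mitochondrial DNA were looked for by symbol, and 0 were among the measured genes. Symbols came from RefSeq transcripts only, so a probe without such a match would be missed, and their absence from the array is not shown.

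The extracts expressed the defining genes of pancreas, with 20 of 23 acinar, 14 of 15 islet and 8 of 8 duct markers measured. Acinar markers had a median of 0.029, with 5 higher and 6 lower, and medians of -0.19, -0.0093, 0.14 and 0.24 on arrays 1 to 4. Gp2 was lower at -1.52 ± 0.10, and Pnliprp1 was higher at 0.92 ± 0.096. Islet markers had a median of -0.036, with 0 higher and 2 lower in limma, and 2 higher and 3 lower at an unadjusted p under 0.05. The lower ones were the granin genes Chga at -0.24 ± 0.060 (adjusted p up to 0.12 without replicate 1, 3 or 4) and Chgb at -0.31 ± 0.082 (up to 0.136 without replicate 1, 2 or 3). With median centring Chga and Chgb were at 0.23 and 0.045, both below the all-gene median of 0.26 in that setting. The median was 0.082 for 8 duct markers, 0.0052 for 10 mesenchyme markers, -0.11 for 7 endothelium markers and -0.027 for 7 leukocyte markers. Past the test among these were Fbn1 at -0.51 ± 0.070 and Col5a1 at -0.31 ± 0.052, the latter at 0.20 with median centring, again below the all-gene median. Pdgfrb at 0.33 ± 0.069 (adjusted p up to 0.0772 without replicate 2 or 4) and Tek at -0.29 ± 0.065 (up to 0.0895 without replicate 3 or 4) passed as well. Markers of striated muscle and brown fat, tissues rich in mitochondria, were near 0 as lists, while hepatocyte markers, described below, had a median of 0.37. The part of such tissues in the results was not tested. Striated muscle had a median of -0.00072, with Ckm at 0.26 ± 0.066 (adjusted p up to 0.146 without replicate 2, 3 or 4) and Myh8 at -0.23 ± 0.047 (up to 0.0934 without replicate 1, 3 or 4, and at 0.32 with median centring) past the test, of 12. Brown fat had a median of 0.059, with Plin1 at 0.19 ± 0.053 past the test, of 6, though not without any 1 replicate (0.0638 to 0.185).

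Markers of liver and of red cells varied more between arrays than any other list described here. For 11 measured hepatocyte markers the medians were 1.60, 0.70, -0.75 and 0.36 on arrays 1 to 4, and for 6 erythroid markers they were 0.55, 0.066, -0.46 and 0.94, with 0 of either list past the test in limma and, at an unadjusted p under 0.05, 2 hepatocyte and 0 erythroid markers higher. These counts depended on array 3. Without replicate 3, 6 of the 11 hepatocyte markers were higher in limma, with a median of 0.88 against 0.37 with all arrays, and 2 of the 6 erythroid markers, with a median of 0.63 against 0.33. Their part in the results was not tested. The member medians on arrays 1 to 4 were 0.075, 0.33, 0.19 and 0.26. Of 6 adrenal and kidney markers 1 was higher, Nphs1 at 0.21 ± 0.046 (adjusted p up to 0.11 without replicate 1, 3 or 4). Cyp11a1 itself had 2 probes on the array, and the one that stood for it was dim, at percentile 26.7 of brightness. That probe read -0.19, -0.40, 0.013 and -0.072, with a mean of -0.16 ± 0.070 (adjusted p = 0.164). It does not check the labels, because its place relative to the change made in the knockout was not given in the sources used here.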

How the data were processed

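Pancreas RNA from 4 knockout and 4 wild-type extracts was hybridised to 4 two-colour Agilent arrays, 20 µg of total RNA per labelling, per the labels' protocols. Spots were read by the authors with Agilent Feature Extraction (version 10.5.1.1 in the submitters' processing notes). As deposited, per the file headers, the values are median signals and local backgrounds as intensity, processed signals as intensity and a log10 ratio, red over green. For 90.7% of spots this deposited log10 ratio matched the processed signals within 0.001. Median signals were 304 to 467 in red and 163 to 224 in green, 78.2% to 85.1% of spots passed the background test in a channel, and 0 were saturated. The number of arrays limits the precision.

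In limma 3.58.1 under R 4.3.3, normexp (offset 50) corrected the median signals for background, which were normalised by loess within each array. Controls and spots flagged non-uniform (597 to 979 per array) had weight 0, and the latter were then left out. Spots of a probe were averaged. Of 41174 probes, 25097 (61.0%) received 1 symbol by matching the design accession, without version, to RefSeq transcripts of GRCm38.p6. Probes well above background in 1 channel on at least 3 arrays were kept, and the brightest stood for its gene, which left 15524 genes, 601 of them with 3 arrays. The log2 ratio was tested against 0 (lmFit and eBayes, two-sided, Benjamini-Hochberg over all genes, threshold 0.05), so the pairing of extracts on an array is inside each ratio. The procedure was tested on simulated data.

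The named-gene rule took every measured member, array values of those past the test and of the lowest and highest of each complex, each isoform set, the 3 smallest p-values of each other list, and Cyp11a1. A few genes the rule takes are counted but left unnamed. Members and lists were chosen with earlier results of these data known, and the roles within complexes after values were seen. Channel values are log2 signals after loess and Aquantile. Promoter letters were searched in RefSeq sequences of GRCm38.p6. Alternatives were other background corrections, signals, normalisations, filters and variance models, averaging the probes of a gene, each probe by itself, single channels, array weights and leaving out each replicate.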

Additional observations from a re-analysis of the deposited data

Results flagged for a closer look

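Among the 80 members with values on 4 arrays, 2 had an array far from the other 3. The gap there took more of the range than Dixon's critical value for 4 values. By chance about 1 in 20 genes would have such a gap, a larger share than 2 of 80. Ndufa12 was at 0.64 on array 2, while the other arrays lay between 0.19 and 0.21. Cox8b was at -0.088 on array 1, while the other arrays lay between 0.038 and 0.046.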

How the results depend on the processing

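The members' median log2 ratio was 0.16 to 0.26 when 1 replicate was left out, and 11 to 33 members were then higher. Over all genes 637 to 972 were then higher and 347 to 616 lower. With processed signals and loess 24 members were higher, with 1144 genes higher and 620 lower in all. In single channels with no array block 0 members passed in limma (36 at an unadjusted p under 0.05), with 77 genes higher and 30 lower in all. With median centring 78 members were higher and 1 lower (Cox8b), with a median of 0.68, or 0.42 above the median of all genes, and 9471 genes were higher and 2451 lower. That setting leaves in the trend with brightness that loess removes. For the other losses the cause was not tested. Apart from median centring, single channels and left-out replicates, 24 to 43 members were higher under 9 settings, and 24 of the 39 passed in all of these.

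Among the members, the signs that turned belonged to genes near 0 in the fit with loess. Genes of other lists that passed with loess and turned sign with median centring are given in the report. The median of all genes was 0.26 in that setting, so a value above 0 there can still lie below it. Median centring put Ndufv3 at 0.54, Sdhd at 0.43 and Uqcrq at 0.42, and Cox6a2 at -0.040 and Cox8b at -0.23. Processed signals with loess gave Cox6a2 -0.013, Cox8b -0.080 and Ndufa1 -0.033. The log ratio column gave Cox6a2 -0.0061, Cox8b -0.074, Ndufa1 -0.028 and Ndufv3 0.0075. Without background correction Cox8b was at -0.012, with scaling between arrays Cox4i2 was at 0.00047, and with the mean of probes Ndufa1 was at -0.0048 and Ndufv3 at 0.062. Single other probes gave -0.041 for Ndufa1 and 0.054 and 0.16 for Ndufv3. With 1 replicate left out, values ranged over both signs, from -0.026 to 0.025 for Cox4i2, -0.0027 to 0.042 for Cox8b, -0.012 to 0.095 for Ndufa1, -0.055 to 0.12 for Uqcrfs1 and -0.054 to 0.073 for Cox6a2. Ndufv3 was at -0.039 to -0.0032 without replicate 2, 3 or 4, and at 0.19 without replicate 1, where another probe had become the brightest, so that probe and replicate changed together. The same held for Ndufa12 without replicate 3 and Uqcrh without replicate 4. The reported fit is paired by array, and the single channels with no array block are its unpaired alternative.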
